A study of Mus musculus with 12 samples.

Results

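Clone 2 is a single clone of 4T1, a mouse mammary carcinoma line, in which the Etv4 gene had been targeted with Cas9 and a gene-specific sgRNA. Its RNA was sequenced from collagen I gels (3D) and from plastic (2D), and the 4 clone 2 libraries described here are those that carry its name in the 3D and 2D count tables, out of 12 libraries in all. What its response to the gel added to or lacked from that of control cells was read against 4 control libraries, 2 in 3D and 2 in 2D. The control cells were pools of clones that had received a control sgRNA by the same nucleofection, so a single clone was set against pools. A second single clone, clone 1, with 2 libraries per format, shared the fit and was used for 1 further comparison. All cells were grown in DMEM/F12 medium with 10% serum. The gels held 1.2 or 2.4 mg/ml collagen, and the labels do not say which concentration a given library had. Gels were broken up with collagenase before RNA was taken and plastic cultures were not, and each format has a count table of its own. Format, enzyme step and table therefore change together, and their shares in a 3D against 2D change cannot be told apart. Nothing in the labels makes the replicates separate cultures, and the p-values then reflect only how far these libraries spread.

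Etv4 belongs to the PEA3 group of ETS transcription factors, with Etv1 and Etv5, whose activity is raised by ERK signalling and whose targets in mammary tumours include matrix proteases. Collagen I is the main fibrillar collagen of breast stroma. Cells embedded in it are held by integrins from all sides, whereas cells on plastic spread on a stiff flat surface, and proliferation, cytoskeletal and matrix genes are known to respond to this difference.

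Total counts came to 27.2 and 26.5 M for clone 2 in 3D, with 18.7 and 14.4 M on plastic. For control they came to 27.1 and 28.3 M in 3D, with 13.9 and 14.4 M on plastic. Of 31017 genes in the tables, 13763 had enough counts to be tested. The first principal component, with 84.5% of the variance of the 500 most variable genes, separated the 3D from the 2D libraries, and no library lay with the other format. All 7 markers of mammary carcinoma epithelium were detected in clone 2, with a summed level of 3290 and 3330 CPM (counts scaled to library size) in 3D and 4930 and 4980 in 2D. In control that sum was 3350 and 3450 CPM in 3D and 4270 and 4230 in 2D. Leukocyte, fibroblast and endothelial markers summed to 3.06 to 23.8 CPM in the clone 2 libraries. Of these markers, Ptprc, Col1a1 and Pecam1 were at 0 to 0.64 CPM there. The leukocyte sum rested mostly on Cd68, at 8.39 and 7.33 CPM in clone 2 in 3D and 2.28 and 1.85 CPM in 2D. The endothelial sum rested mostly on Egfl7, at 3.11 and 3.47 CPM in clone 2 in 3D and 9.71 and 7.68 CPM in 2D. Both genes moved the same way in control. The fibroblast sum was higher in 3D (23 and 23.8 CPM) than in 2D (5.15 and 4.41 CPM) in clone 2 and rested on Pdgfra, a growth factor receptor, while Pdgfrb and Lum were at 0 in all of these libraries. The 12 mitochondrial genome genes tested had a median log2 change of 3D over 2D of 4.30 in clone 2, with 10 higher and 1 lower, and of 4.60 in control, with 10 higher and 2 lower. This is the largest median of the lists in both, it moves with every 3D against 2D change, and its part in those results was not tested. In bulk RNA, fewer cells of a kind and less RNA per cell cannot be told apart.

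Most of the measured transcriptome of clone 2 differed between the formats. Between 3D and 2D, 5850 genes were higher (42.5% of those tested) and 5097 lower (37%), at an adjusted p under 0.05 in edgeR's quasi-likelihood test with Benjamini-Hochberg adjustment, the test behind every gene p-value given here. Changes of at least 2-fold numbered 3686 higher (26.8%) and 2296 lower (16.7%). Control cells had 5734 higher (41.7%) and 4893 lower (35.6%), of which 3405 and 1809 changed by at least 2-fold. Of the genes at least 2-fold higher in clone 2, 2960 (80.3%) were also at least 2-fold higher in control, which is 86.9% of the control list. Of those at least 2-fold lower in clone 2, 1551 (67.6%) were also that much lower in control, which is 85.7% of the control list.

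**Figure D1:**
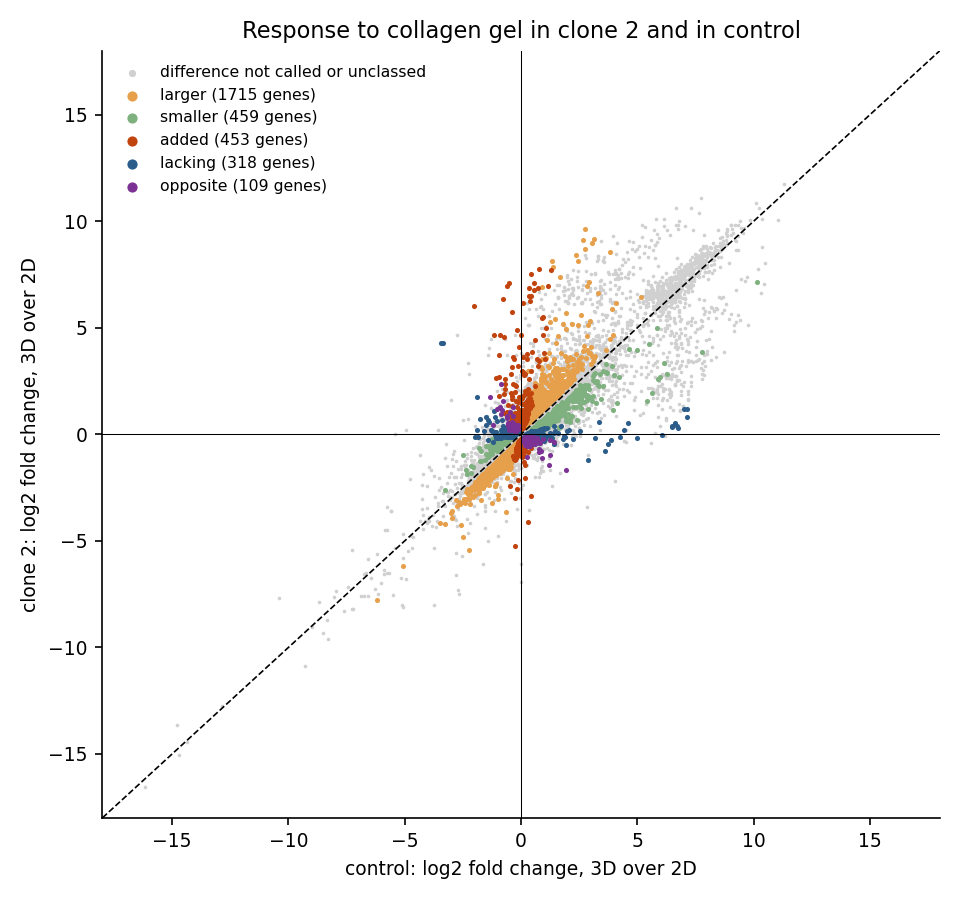
Each point is 1 of 13763 genes, with its log2 fold change of 3D over 2D in control on the horizontal axis and in clone 2 on the vertical axis; colours mark the classes of genes whose response differed, and the dashed line marks equal responses. Most points follow the line, and the 1715 genes with a larger response in clone 2 lie on its steep side.

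The largest single rises of clone 2 in the gel were shared with the control. Fos, an early response transcription factor of the AP-1 group, stood at 444 and 450 CPM in clone 2 in 3D, against 0.380 and 0.853 CPM in 2D. The same gene was at 375 and 383 CPM in control in 3D, against 0.419 and 1.21 CPM in 2D. Its log2 change was 9.56 in clone 2 and 8.83 in control, and the responses did not differ past the threshold (0.73, adjusted p = 0.288). Krt87, a hair-type keratin, had 510 counts in the 3D libraries of clone 2 and 0 in 2D, at least 98.6-fold higher by the floor of 3 counts over a group, and was at least 68.1-fold higher in control. Gdnf, a neurotrophic ligand, was at least 57.6-fold higher in clone 2 and at least 29.8-fold higher in control. Of the 15 genes chosen as most raised in clone 2, 11 had 0 counts in its 2D libraries. Over all genes called higher in clone 2, 763 had 0 counts in both of its 2D libraries, and 268 genes were at 0 in all 6 2D libraries of the series with at least 100 counts over the 3D libraries.

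The largest falls went with gene overlap. Of the 15 genes chosen as most lowered in clone 2, 11 had over 40% of their exon length covered by a gene on the opposite strand. Whether the counting used strand is not stated, so such genes are uncertain. Among them Ilk, which encodes integrin-linked kinase and has 89.7% of its exon length covered in this way, was at 0.490 and 0.365 CPM in clone 2 in 3D, against 98.8 and 94.2 CPM in 2D. In control Ilk was at 0.875 and 1.04 CPM in 3D, against 74.5 and 66.1 CPM in 2D, so the near absence in the gel table was common to these cells. The 42 tested genes with over 90% of their exons covered on the opposite strand had a median log2 change of -6.54 in clone 2 and -5.97 in control, and 81.0% of them were at least 2-fold lower in clone 2, against 15.7% of the 8197 genes with no overlap. The part of overlap in single results was not tested. It is given below for each gene described with over 5% of its exons under an opposite-strand gene.

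Among genes without overlap, Prl3d2, a placental hormone of the prolactin family, had a log2 change of -4.82 in clone 2 and -2.49 in control. It was at 0.245 and 0.292 CPM in clone 2 in 3D and 6.67 and 8.89 CPM in 2D, while control had 0.365 and 0.394 CPM in 3D and 1.75 and 2.56 CPM in 2D. The difference was -2.33 (adjusted p = 0.00804), and it was not called without control replicate 2 in 3D (0.0517). All of these levels are low, and near-identical prolactin family copies could share reads. Gadd45b, a stress-induced gene, had a log2 change of -4.46 in clone 2 and -4.21 in control (difference -0.25, adjusted p = 0.277). Klf2, a mechanosensitive Kruppel-like factor of endothelium and other cells, rose in both, by 6.38 in clone 2 and 7.06 in control (difference -0.68, adjusted p = 0.168).

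The difference between the responses was tested directly, as the 3D against 2D change of clone 2 minus that of control. It passed the threshold for 3059 genes (22.2%), of which 1022 were higher (7.43%) and 2037 lower (14.8%) in clone 2. At least 2-fold differences numbered 267 higher (1.94%) and 134 lower (0.974%). Without the abundant predicted transcripts Gm26917 and Gm42418, which took 10.9 to 12% and 1.47 to 1.74% of the clone 2 counts in 3D, against 1.75 to 1.81% and 0.0971 to 0.101% in 2D, the split became 1231 higher and 1577 lower. The 3D libraries carry much of the count. Without clone 2 replicate 1 in 3D the call set was 602 higher and 1282 lower, without clone 2 replicate 2 in 3D 633 and 1487, without control replicate 1 in 3D 635 and 1545, and without control replicate 2 in 3D 593 and 1375. By chromosome, median differences lay between -0.25 on chromosome 1 and 0.13 on chromosome 11, and -0.06 over all genes tested.

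By class, 453 genes had a response called in clone 2 and not in control (added), and 318 had one called in control and not in clone 2 (lacking). A response that was not called can still be present. Another 1715 moved the same way with a larger change in clone 2, 459 with a smaller change, and 109 moved in opposite directions. Added genes divided into 232 higher and 221 lower in the gel, and 106 and 14 of these had a difference of at least 2-fold. Lacking genes divided into 199 called higher and 119 called lower in control alone, and 46 and 25 of these had a difference of at least 2-fold. Of the genes with a larger response, 1180 fell and 535 rose, and only 21 and 115 of these had a difference of at least 2-fold. Over all genes tested, the slope of the clone 2 response on the control response was 1.076 (orthogonal regression, Pearson r = 0.892). Leaving out any 1 of the 4 3D libraries of clone 2 and control left 264 to 390 added, 189 to 231 lacking, 1087 to 1247 larger, 247 to 302 smaller and 72 to 78 opposite genes, the lowest counts of added, larger and smaller genes being those without clone 2 replicate 1.

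Etv4 itself rose more in clone 2 than in control. Etv4 (mm10, chr11:101769742-101785371, minus strand, no overlapping gene) was at 86.6 and 91.5 CPM in clone 2 in 3D, against 49.3 and 46.0 CPM in 2D. Control had 94.7 and 99.4 CPM in 3D, against 78.1 and 76.0 CPM in 2D. The clone 2 libraries were below the control libraries in both formats, by a narrower margin in the gel. The log2 change was 0.90 ± 0.06 (approximate SE) in clone 2 (adjusted p = 9.02e-13) and 0.33 ± 0.06 in control. The difference was 0.57 ± 0.09 (adjusted p = 5.46e-05). Genes of chromosome 11 as a whole had a median log2 change of 0.43 in clone 2 and 0.23 in control. Since an edited gene can still be transcribed, these counts check the knockout little.

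The relatives of Etv4 rose in both cell populations. Etv1 rose by 2.01 on the log2 scale in clone 2 and by 2.35 in control, a difference of -0.35 (adjusted p = 0.0189). This call rests on single libraries, since it was lost without clone 1 replicate 2 in 3D (adjusted p = 0.0548), clone 2 replicate 2 in 2D (0.0532), clone 2 replicate 2 in 3D (0.0791), control replicate 2 in 2D (0.101) or control replicate 1 in 3D (0.0964), with a range of 0.012 to 0.101 over all alternatives. Etv5 rose by 0.51 in clone 2 and 0.64 in control (difference -0.12, adjusted p = 0.439). Of 16 PEA3 and ERK feedback genes, 16 rose and 0 fell in clone 2, against 15 and 1 in control (medians 1.32 and 1.38, beside 0.11 and 0.10 over all genes). The responses differed in 7 of them, 4 higher and 3 lower in clone 2 (1 lower without clone 1 replicate 2 in 3D or clone 2 replicate 2 in 3D), where 22.2% of all genes differed. Spry2, a Sprouty inhibitor of receptor tyrosine kinase signalling, was at 113 and 113 CPM in clone 2 in 3D and 35.7 and 36.8 CPM in 2D, while control had 122 and 126 CPM in 3D and 24.9 and 27.1 CPM in 2D. Its rise was smaller in clone 2, with a difference of -0.62 ± 0.10 (adjusted p = 7.12e-05). Spry1, its paralog, rose by 0.48 in clone 2 and was lower by 0.32 in control on the log2 scale (difference 0.79, adjusted p = 6.62e-06), with 24.4% of its exons under an opposite-strand gene. The control change of Spry1 alone was not past the threshold without control replicate 2 in 2D (adjusted p = 0.0528).

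Among genes called higher in the gel in clone 2 alone, Itgb2, the leukocyte-type beta 2 integrin chain, had the smallest adjusted p of the 6 named. It was at 22.6 and 22.8 CPM in clone 2 in 3D and 6.78 and 5.76 CPM in 2D. Control was at 19.1 and 19.2 CPM in 3D and 16.4 and 18.8 CPM in 2D. The control libraries and the clone 2 gel libraries lay together, and the clone 2 plastic libraries stood below them. The log2 change was 1.84 ± 0.14 in clone 2 and 0.12 ± 0.13 in control (adjusted p = 0.393), and the difference was 1.72 ± 0.19 (adjusted p = 4.64e-07). Sh2b2, an adaptor of insulin and cytokine receptor signalling, and Amigo2, a neuronal-type adhesion protein, had the same layout. Sh2b2 was at 4.83 and 5.07 CPM in clone 2 in 3D, against 1.25 and 1.71 CPM in 2D, and at 5.18 and 5.12 CPM in control in 3D, against 5.59 and 5.53 CPM in 2D. Amigo2 was at 7.45 and 5.73 CPM in clone 2 in 3D, against 2.12 and 1.71 CPM in 2D, and at 8.24 and 8.99 CPM in control in 3D, against 8.95 and 8.97 CPM in 2D. For both, clone 2 was low on plastic and came near the control level in the gel.

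Other layouts occurred among the genes that clone 2 added. Bmf, a pro-apoptotic BH3-only protein linked to detachment from matrix, was at 5.73 and 6.02 CPM in clone 2 in 3D, against 0.868 and 0.356 CPM in 2D. Control had 3.10 and 1.97 CPM in 3D, against 1.40 and 1.62 CPM in 2D, so clone 2 was above control in the gel and below it on plastic. The difference was 2.44 ± 0.54 (adjusted p = 0.00177), and the control rise itself, at 0.74, missed the threshold narrowly (adjusted p = 0.0522) and passed it in 9 of 20 alternatives. Samsn1, an adaptor that restrains lymphocyte signalling, was at 5.39 and 4.85 CPM in clone 2 in 3D and 1.46 and 1.78 CPM in 2D, while control stayed at 1.68 and 1.04 CPM in 3D and 2.03 and 1.55 CPM in 2D. Here the clone 2 gel libraries stood above all others. Gpm6b, a membrane proteolipid of neural cells, was at 3.43 and 3.06 CPM in clone 2 in 3D and 0.380 and 0.569 CPM in 2D, with control at 5.98 and 4.91 CPM in 3D and 4.33 and 5.67 CPM in 2D.

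Falls in the gel that were called in clone 2 alone were led by Sox13, a SoxD transcription factor (chr1:133382303-133424377). It was at 0.944 and 0.839 CPM in clone 2 in 3D and 4.94 and 5.62 CPM in 2D. Control held 6.09 and 6.66 CPM in 3D and 6.85 and 7.49 CPM in 2D. Only the clone 2 gel libraries were low, and the difference was -2.38 ± 0.30 (adjusted p = 2.56e-06). Serpinb5, the serpin maspin of mammary epithelium (chr1:106861173-106883348), was at 12.9 and 12.1 CPM in clone 2 in 3D, against 29.5 and 33.0 CPM in 2D, and at 23.1 and 22.5 CPM in control in 3D, against 21.0 and 20.8 CPM in 2D. Clone 2 was thus below control in the gel and above it on plastic, with a difference of -1.44 ± 0.16 (adjusted p = 3.20e-07). Sox13 and Serpinb5 lie on chromosome 1, the chromosome with the lowest median difference, -0.25. Sh3tc1 was at 0.909 and 0.985 CPM in clone 2 in 3D and 3.58 and 4.84 CPM in 2D, and at 5.47 and 5.02 CPM in control in 3D and 5.94 and 5.40 CPM in 2D.

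**Figure D2:**
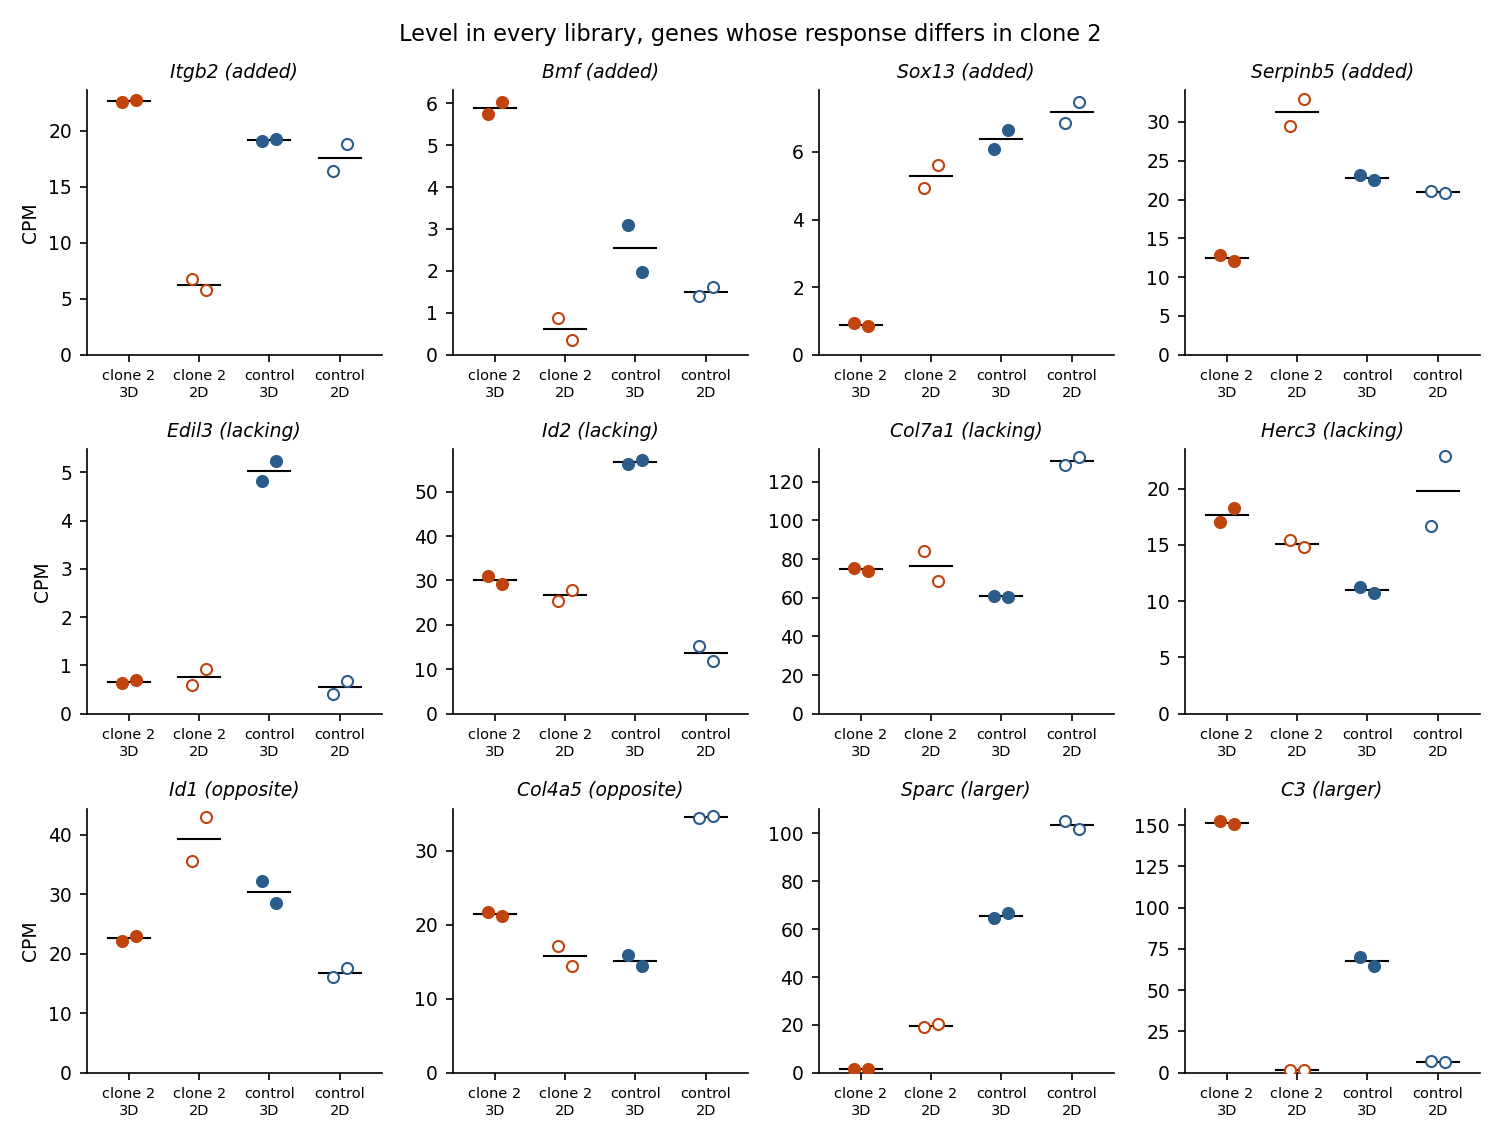
CPM on linear axes from 0 for 12 genes in 4 groups of 2 libraries (filled circles 3D, open circles 2D, bars the mean of 2). Clone 2 stands apart on plastic for Itgb2 and in the gel for Sox13. For Edil3 only the control libraries differ between formats by more than the spread between libraries. For Id2 the control libraries differ far more between formats than the clone 2 libraries do.

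Of the genes classed as lacking, Edil3, which encodes an integrin-binding extracellular matrix protein, had the largest difference of those named. It was at 0.629 and 0.693 CPM in clone 2 in 3D and 0.597 and 0.924 CPM in 2D. In control it was at 4.81 and 5.23 CPM in 3D and 0.419 and 0.674 CPM in 2D. The control gel libraries alone were high, and the difference was -3.35 ± 0.61 (adjusted p = 0.000286). Prl2c3, a proliferin, followed, at 10.5 and 11.4 CPM in clone 2 in 3D and 13.8 and 11.5 CPM in 2D, against 52.0 and 53.1 CPM in control in 3D and 12.5 and 10.2 CPM in 2D. Near-identical proliferin genes could share these reads, so the gene behind the value is uncertain. Sipa1l2, a regulator of Rap GTPases, was at 17.3 and 17.4 CPM in clone 2 in 3D and 19.0 and 17.4 CPM in 2D, and at 21.8 and 22.5 CPM in control in 3D and 9.93 and 10.7 CPM in 2D. Sdc3, a syndecan, had the same pattern, with a difference of -1.42 (adjusted p = 0.000175) and 7.73% of its exons under an opposite-strand gene.

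Id1, Id2 and Id3, which encode dominant-negative helix-loop-helix factors induced by BMP signalling, each had a lower response in clone 2 than in control. Id2 (chr12:25093799-25097140) was at 31.0 and 29.1 CPM in clone 2 in 3D and 25.4 and 27.9 CPM in 2D, against 56.1 and 57.2 CPM in control in 3D and 15.3 and 11.9 CPM in 2D. Clone 2 was above control on plastic and below it in the gel. Its log2 change was 0.18 ± 0.09 in clone 2 (adjusted p = 0.0701, past the threshold in 7 of 21 alternatives) and 2.06 ± 0.10 in control, a difference of -1.88 ± 0.13 (adjusted p = 3.10e-10). Id1 moved in opposite directions, at 22.2 and 22.9 CPM in clone 2 in 3D, against 35.6 and 43.0 CPM in 2D, and at 32.2 and 28.5 CPM in control in 3D, against 16.1 and 17.5 CPM in 2D. Id3, a list member chosen after its values were seen, was at 49.8 and 51.4 CPM in clone 2 in 3D, against 123 and 132 CPM in 2D, and at 45.5 and 47.1 CPM in control in 3D, against 63.1 and 63.1 CPM in 2D. The differences were -1.65 for Id1 and -0.89 for Id3, each with an adjusted p under the threshold (2.29e-08 and 1.10e-07). Over the 18 tested genes of the TGF-beta and BMP list, 12 rose and 3 fell in clone 2 and 15 rose and 3 fell in control (medians 0.78 and 1.15). Of all genes, 42.5% rose and 37% fell in clone 2, and 41.7% and 35.6% in control. Within the list the responses differed in 5, with 1 higher and 4 lower in clone 2, against 7.43% and 14.8% of all genes. Ltbp3, which binds latent TGF-beta in matrix, was the higher one, at 754 and 747 CPM in clone 2 in 3D and 87.9 and 72.8 CPM in 2D, against 470 and 482 CPM in control in 3D and 92.1 and 81.3 CPM in 2D.

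Falls called in control alone included Col7a1, the chain of the anchoring fibril collagen of basement membranes. It was at 75.7 and 73.9 CPM in clone 2 in 3D and 84.1 and 68.8 CPM in 2D, against 61.1 and 60.3 CPM in control in 3D and 129 and 133 CPM in 2D. The clone 2 libraries of the formats overlapped and the control libraries did not, and the difference was 1.07 ± 0.11 (adjusted p = 2.27e-07). Herc3, an E3 ubiquitin ligase, was at 17.0 and 18.2 CPM in clone 2 in 3D and 15.4 and 14.8 CPM in 2D, against 11.3 and 10.7 CPM in control in 3D and 16.7 and 22.9 CPM in 2D. Wnt10a, a Wnt ligand, was at 2.90 and 2.85 CPM in clone 2 in 3D and 2.22 and 1.49 CPM in 2D, against 1.75 and 2.26 CPM in control in 3D and 5.52 and 4.99 CPM in 2D. For Herc3 and Wnt10a the control libraries were lower in the gel, and clone 2 showed no called change (adjusted p = 0.142 and 0.0592, the second past the threshold in 8 of 21 alternatives).

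Opposite responses included Col4a5, a collagen IV chain. It was at 21.8 and 21.2 CPM in clone 2 in 3D and 17.1 and 14.4 CPM in 2D, against 15.9 and 14.4 CPM in control in 3D and 34.5 and 34.7 CPM in 2D. The log2 change was 0.44 in clone 2 and -1.19 in control, a difference of 1.63 ± 0.16 (adjusted p = 5.26e-08). Cxcl5, a neutrophil chemokine, was at 52.1 and 54.2 CPM in clone 2 in 3D and 30.9 and 26.9 CPM in 2D, against 35.7 and 32.7 CPM in control in 3D and 56.2 and 48.5 CPM in 2D. Clone 2 was above control in the gel and below it on plastic for this chemokine. Lypd3, a GPI-anchored protein of epithelia, fell in clone 2, by 0.37 on the log2 scale, and rose by 1.43 in control (difference -1.81, adjusted p = 2.76e-08), with 13.6% of its exons under an opposite-strand gene.

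Larger responses of clone 2 were led by genes it barely expressed on plastic. Complement component C3 was at 152 and 151 CPM in clone 2 in 3D and 1.52 and 1.56 CPM in 2D, against 70.1 and 64.9 CPM in control in 3D and 7.13 and 6.41 CPM in 2D. The groups did not overlap, and the log2 change was 6.62 ± 0.12 in clone 2 and 3.32 ± 0.10 in control (difference 3.30 ± 0.21, adjusted p = 1.89e-11). Gpnmb, a transmembrane glycoprotein of tumour cells and macrophages, was at 22.9 and 22 CPM in clone 2 in 3D and 0.597 and 1.35 CPM in 2D, against 7.66 and 6.45 CPM in control in 3D and 3.01 and 1.75 CPM in 2D. Robo1, a Slit receptor, was at 14.4 and 12.8 CPM in clone 2 in 3D and 0.326 and 0.569 CPM in 2D, against 8.31 and 6.73 CPM in control in 3D and 1.82 and 2.09 CPM in 2D. Neurl3, an E3 ubiquitin ligase, rose by 7.16 in clone 2 and by 2.92 in control on the log2 scale. With clone 2 at 0.0542 and 0.284 CPM in 2D, its fold is loosely set.

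Sparc, a secreted collagen-binding matricellular protein, had the largest negative difference of the genes named in this class. It was at 1.64 and 1.42 CPM in clone 2 in 3D and 19.0 and 20.3 CPM in 2D, against 64.6 and 66.6 CPM in control in 3D and 105 and 102 CPM in 2D. Clone 2 was far below control in both formats, and the gap was wider in the gel. The log2 change was -3.67 ± 0.13 in clone 2 and -0.66 ± 0.06 in control (difference -3.01 ± 0.15, adjusted p = 1.96e-13). Smaller rises included Cdkn1a, the cyclin-dependent kinase inhibitor p21, at 32.5 and 34.4 CPM in clone 2 in 3D and 2.55 and 4.20 CPM in 2D, against 54.7 and 54.3 CPM in control in 3D and 0.559 and 0.944 CPM in 2D. Its difference was -2.82 ± 0.36 (adjusted p = 2.99e-06), and 7.68% of its exons under an opposite-strand gene. Arrdc3, an arrestin-domain protein, was at 56.8 and 53.3 CPM in clone 2 in 3D and 20.9 and 15.6 CPM in 2D, against 78.0 and 77.0 CPM in control in 3D and 10.5 and 8.30 CPM in 2D. For Cdkn1a and Arrdc3, clone 2 was above control on plastic and below it in the gel.

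The gap between clone 2 and control was usually narrower in the gel where responses differed strongly. Of the 401 genes with a difference of at least 2-fold, 306 (76.3%) had a smaller absolute log2 ratio of clone 2 to control in 3D than in 2D, computed on CPM + 0.1, against 56.1% of all genes tested. The median absolute log2 ratio of the 401 genes was 0.52 in 3D and 1.31 in 2D. The share was 83.1% among the 267 genes whose response was higher in clone 2 and 62.7% among the 134 whose response was lower. With differences of any size, it was 60.7% of the 3059 called genes, 69.7% of the 1022 higher and 56.2% of the 2037 lower ones. The 2D libraries had fewer counts than the 3D libraries, and the part of depth in these ratios was not tested. A difference of responses is built from these ratios, so the shares describe the genes and are not tested.

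**Figure D3:**
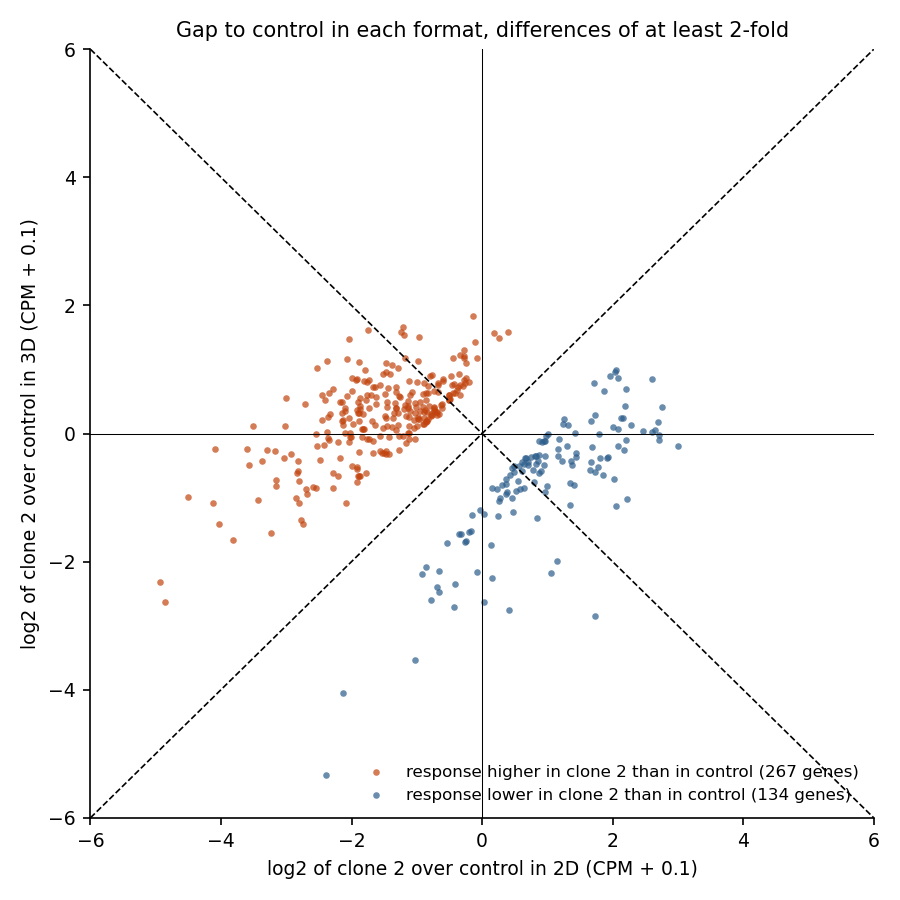
Log2 ratio of clone 2 to control (CPM + 0.1) in 2D on the horizontal axis and in 3D on the vertical axis for the 401 genes with a difference of at least 2-fold, coloured by its direction; points between the dashed diagonals on the left and right have the smaller ratio in 3D. Most of the 267 genes with a higher response lie on the left, below control on plastic.

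Of 13 tested metalloproteinase and Timp genes, 8 rose and 1 fell in clone 2, and 8 rose and 2 fell in control (medians 1.12 and 0.85). Over all genes, here and for the lists below, 42.5% rose and 37% fell in clone 2, and 41.7% and 35.6% in control. Among the 13, the responses differed in 3, near the 22.2% of all genes tested, and these were Mmp9, Mmp3 and Timp1. Without control replicate 2 in 2D, 4 and not 2 were higher in clone 2. Mmp9, a gelatinase, was at 130 and 133 CPM in clone 2 in 3D and 26.1 and 21.2 CPM in 2D, against 92.0 and 105 CPM in control in 3D and 44.6 and 50.9 CPM in 2D. Mmp3, stromelysin 1, was at 31.2 and 35.2 CPM in clone 2 in 3D and 6.83 and 5.33 CPM in 2D, against 58.7 and 63.0 CPM in control in 3D and 39.3 and 40.5 CPM in 2D. Timp1, an inhibitor of these enzymes, was at 13.1 and 12.5 CPM in clone 2 in 3D and 68.0 and 63.8 CPM in 2D, against 21.4 and 21.1 CPM in control in 3D and 59.1 and 65.1 CPM in 2D. Both proteases rose more and the inhibitor fell more in clone 2, with differences of 1.42 ± 0.12, 1.82 and -0.82. Mmp1b, a metalloproteinase outside the list, also had a called difference of at least 2-fold, higher in clone 2. Its log2 ratio of clone 2 to control, on CPM + 0.1, was -0.056 in 3D and -2.005 in 2D. Plau, the urokinase plasminogen activator, was at 317 and 321 CPM in clone 2 in 3D and 156 and 140 CPM in 2D, against 315 and 320 CPM in control in 3D and 194 and 193 CPM in 2D. Of the 10 plasminogen system genes, 4 rose and 6 fell in clone 2, 4 rose and 5 fell in control (3 without control replicate 2 in 3D), and the responses were higher in 2 and lower in 4 in clone 2, against 7.43% and 14.8% of all genes.

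Of 21 collagen chain and crosslinking genes, 10 rose and 7 fell in clone 2, 12 rose and 8 fell in control, and the difference was higher in 4 (2 without clone 2 replicate 2 in 2D) and lower in 5, where 22.2% of all genes differed. Col6a1, a collagen VI chain chosen after its values were seen, was at 12.3 and 11.5 CPM in clone 2 in 3D and 1.14 and 0.640 CPM in 2D, against 24.9 and 25.6 CPM in control in 3D and 7.97 and 5.60 CPM in 2D. Col18a1, the source of endostatin, rose by 0.47 in control and was at -0.10 in clone 2 (adjusted p = 0.105), a difference of -0.57 (adjusted p = 6.96e-06). Among 20 basement membrane and matricellular genes the difference was higher in 5 and lower in 8, against 7.43% and 14.8% of all genes. That higher count was 3 without clone 2 replicate 1 in 2D, clone 2 replicate 2 in 3D or control replicate 2 in 3D. Lama3, the laminin alpha 3 chain, was at 317 and 318 CPM in clone 2 in 3D and 202 and 214 CPM in 2D, against 459 and 426 CPM in control in 3D and 119 and 116 CPM in 2D. Hspg2, perlecan, was at 637 and 645 CPM in clone 2 in 3D and 195 and 178 CPM in 2D, against 516 and 500 CPM in control in 3D and 207 and 246 CPM in 2D. Lama3 rose less and Hspg2 more in clone 2, with differences of -1.30 and 0.61 (adjusted p = 1.47e-11 and 5.23e-05). Of 17 integrin and collagen receptor genes the responses differed in 5, 1 higher and 4 lower, against 7.43% and 14.8% of all genes. Itga6, the laminin-binding alpha 6 chain, was at 343 and 341 CPM in clone 2 in 3D and 476 and 480 CPM in 2D, against 493 and 471 CPM in control in 3D and 411 and 459 CPM in 2D, a difference of -0.63 (adjusted p = 1.03e-06). The control change of Itga6 alone, 0.15, was not called without control replicate 1 in 2D (adjusted p = 0.256) or in 3D (0.0641). Itgb4, its beta 4 partner with 7.66% of its exons under an opposite-strand gene, rose by 2.41 in clone 2 and 2.38 in control, with no called difference (0.03, adjusted p = 0.848).

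Of 26 actin, SRF and YAP target genes, 16 fell and 5 rose in clone 2 and 14 fell and 5 rose in control (medians -0.60 and -0.24), beside 37% and 35.6% lower over all genes. The difference was lower in 11 and higher in 2, against 14.8% and 7.43% of all genes tested. Cnn2, a calponin, was at 173 and 177 CPM in clone 2 in 3D and 288 and 322 CPM in 2D, against 186 and 196 CPM in control in 3D and 196 and 185 CPM in 2D. Clone 2 was above control on plastic and near it in the gel, and the difference was -0.81 (adjusted p = 2.99e-07). Tagln2, transgelin 2, fell by 1.21 in clone 2 and by 0.38 in control (difference -0.84, adjusted p = 1.70e-08). The YAP targets Ankrd1 and Ajuba fell in both, Ankrd1 by 1.53 in clone 2 and 1.49 in control and Ajuba by 1.66 in clone 2 and 1.76 in control, with no called difference (adjusted p = 0.768 and 0.429).

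Interferon-stimulated genes, which encode antiviral effectors, rose in the gel in both populations, and the response was higher in clone 2 for 11 of them. Of 30 tested, 26 rose and 2 fell in clone 2, and 19 rose and 4 fell in control, with medians of 1.78 and 1.30 beside 0.11 and 0.10 over all genes. The difference was higher in 11 (36.7%) and lower in 0, against 7.43% and 14.8% of all genes, and the list median of the difference was 0.88. Ifi205, an interferon-inducible gene outside this list, had a called difference of at least 2-fold that was lower in clone 2. Its log2 ratio of clone 2 to control, on CPM + 0.1, was -0.598 in 3D and 1.731 in 2D. Ifit1, an RNA-binding effector, was at 12 and 10.3 CPM in clone 2 in 3D and 0.326 and 0.284 CPM in 2D, against 3.54 and 4.01 CPM in control in 3D and 0.839 and 0.809 CPM in 2D. Clone 2 was above control in the gel and below it on plastic, with a difference of 2.97 ± 0.57 (adjusted p = 0.000491). Oasl2, of the oligoadenylate synthetase family, was at 36.2 and 32.2 CPM in clone 2 in 3D and 0.597 and 1.42 CPM in 2D, against 15.8 and 15.4 CPM in control in 3D and 2.24 and 1.96 CPM in 2D. Ddx58, the RNA sensor RIG-I, whose control change was not called without control replicate 2 in 2D (adjusted p = 0.253), was at 72.5 and 67.2 CPM in clone 2 in 3D and 31.8 and 25.5 CPM in 2D, against 51.6 and 50.3 CPM in control in 3D and 46.8 and 34.1 CPM in 2D. Irf9, a subunit of the factor that binds the interferon response element, was at 15.9 and 16.8 CPM in clone 2 in 3D and 7.16 and 7.97 CPM in 2D, against 10.9 and 10.2 CPM in control in 3D and 10.1 and 10.3 CPM in 2D. It rose in clone 2 alone. Irf9 was chosen after its values were seen.

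These genes are known for a shared promoter element, and 2 promoters of members whose responses differed show it. The windows run over 250 bases before the start site, from RefSeq on build GRCm38.p6, with capitals for the interferon-stimulated response element searched as GAAA, any 2 bases and GAAA on both strands. Ifit1 lies at chr19:34640639-34640888 on the plus strand and Bst2 at chr8:71537473-71537722 on the minus strand.
Ifit1: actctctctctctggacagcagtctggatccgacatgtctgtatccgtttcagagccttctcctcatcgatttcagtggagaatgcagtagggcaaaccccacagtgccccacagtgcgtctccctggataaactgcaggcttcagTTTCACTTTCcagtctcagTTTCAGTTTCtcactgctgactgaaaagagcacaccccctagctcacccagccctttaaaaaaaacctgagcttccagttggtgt
Bst2: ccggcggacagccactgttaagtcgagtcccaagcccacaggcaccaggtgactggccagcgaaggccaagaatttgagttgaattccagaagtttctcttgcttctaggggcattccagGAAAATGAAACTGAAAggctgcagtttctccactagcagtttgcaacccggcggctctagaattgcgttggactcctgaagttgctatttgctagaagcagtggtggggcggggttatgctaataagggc
Each window holds 2 matches, which overlap in Bst2. The element was found in 11 of 25 interferon list genes with a window (44%) and in 3.46% of the windows of 27025 genes, or 3.15% of those of 10142 tested genes. Bst2, tetherin, which holds virus particles at the cell surface, was at 10.6 and 9.12 CPM in clone 2 in 3D and 4.50 and 5.48 CPM in 2D, against 7.91 and 7.67 CPM in control in 3D and 7.76 and 6.95 CPM in 2D. The difference of Bst2 was 0.91 ± 0.24 (adjusted p = 0.00674), and without clone 2 replicate 1 in 3D it was 0.80 (adjusted p = 0.0545, with 0.00185 to 0.0545 over all alternatives).

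Of 16 MHC class I presentation genes, the difference was higher in 7 and lower in 1, against 7.43% and 14.8% of all genes (4 higher without control replicate 1 in 3D). Nlrc5, the transactivator of this gene set, was at 10.2 and 10.4 CPM in clone 2 in 3D and 1.46 and 1.07 CPM in 2D, against 27.6 and 27.3 CPM in control in 3D and 22.1 and 22.3 CPM in 2D. Clone 2 stayed below control in both formats and came closer in the gel (difference 2.68, adjusted p = 2.19e-08). The control change of Nlrc5, 0.31, was not called without control replicate 1 (adjusted p = 0.0668) or 2 (0.0561) in 3D. Among 26 NF-kB targets and chemokines the difference was higher in 8 and lower in 3, against 7.43% and 14.8% of all genes (1 lower without clone 2 replicate 2 in 3D, control replicate 1 in 2D or control replicate 2 in 3D). Cxcl1, a neutrophil chemokine, was at 174 and 175 CPM in clone 2 in 3D and 51.2 and 51.1 CPM in 2D, against 98.2 and 102 CPM in control in 3D and 45.8 and 45.0 CPM in 2D. Ptgs2, cyclooxygenase 2, was at 365 and 363 CPM in clone 2 in 3D and 389 and 428 CPM in 2D, against 811 and 777 CPM in control in 3D and 473 and 507 CPM in 2D. Control thus raised Ptgs2, and the difference was -0.86 (adjusted p = 1.77e-08). The clone 2 change of Ptgs2, -0.16, passed the threshold (adjusted p = 0.00864) but not without clone 2 replicate 2 in 2D (0.212), without clone 2 replicate 2 in 3D (0.0788) or with DESeq2 size factors (0.142).

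**Figure D4:**
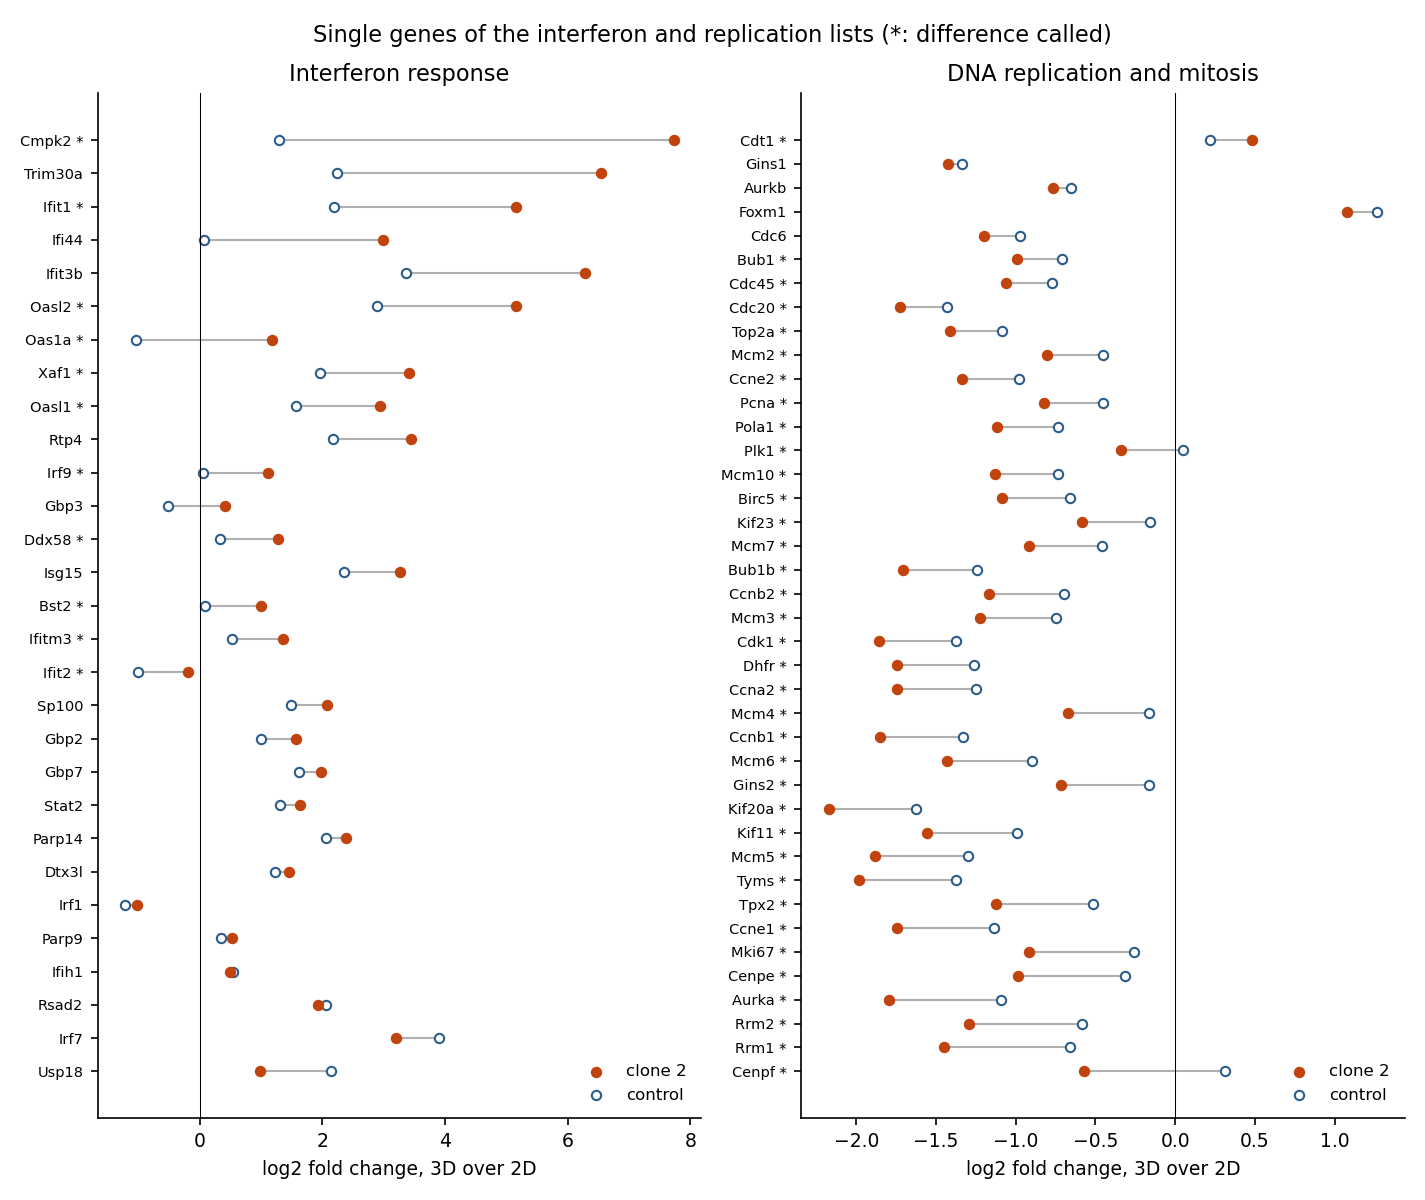
Log2 fold change of 3D over 2D for 29 of the 30 tested genes of the interferon list (left) and all 40 of the DNA replication and mitosis list (right), filled circles for clone 2 and open circles for control, with an asterisk where the difference passed the threshold. On the left 11 genes have a called difference, each higher in clone 2, and on the right 36 do, of which 35 are lower in clone 2.

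Of 40 DNA replication and mitosis genes, 38 fell and 2 rose in clone 2, and 35 fell and 3 rose in control, with medians of -1.18 and -0.73. The difference was lower in 35 (87.5%) and higher in 1, against 14.8% and 7.43% of all genes, and its list median was -0.47. Mcm5, a subunit of the replicative helicase, was at 170 and 179 CPM in clone 2 in 3D and 641 and 649 CPM in 2D, against 250 and 248 CPM in control in 3D and 644 and 581 CPM in 2D. The populations overlapped on plastic for this gene and clone 2 was lower in the gel, with a difference of -0.59 (adjusted p = 3.62e-06). Cdk1, the mitotic kinase, was at 149 and 154 CPM in clone 2 in 3D and 547 and 550 CPM in 2D, against 162 and 160 CPM in control in 3D and 420 and 417 CPM in 2D. For Cdk1 the gel levels lay close and clone 2 was higher on plastic. Rrm1, the large subunit of ribonucleotide reductase, was at 152 and 148 CPM in clone 2 in 3D and 407 and 413 CPM in 2D, against 177 and 180 CPM in control in 3D and 275 and 288 CPM in 2D. Aurka, a spindle kinase, was at 47.6 and 51.6 CPM in clone 2 in 3D and 177 and 168 CPM in 2D, against 62.0 and 63.2 CPM in control in 3D and 128 and 139 CPM in 2D. Cenpf, a kinetochore protein, fell by 0.57 in clone 2 and rose by 0.31 in control (difference -0.88, adjusted p = 2.82e-07). Foxm1, a transcription factor of the G2 phase, went against the list and rose by 1.08 in clone 2 and 1.27 in control (difference -0.19, adjusted p = 0.112). Aurka and Foxm1 were chosen after their values were seen.

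The E2F site is the known promoter element of replication genes. It was searched as TTTCCCGC, TTTCGCGC and TTTGGCGC on both strands in the same windows, and Mcm5 (chr8:75109259-75109508, plus strand) and Cdk1 (chr10:69352913-69353162, minus strand) are shown with matches in capitals.
Mcm5: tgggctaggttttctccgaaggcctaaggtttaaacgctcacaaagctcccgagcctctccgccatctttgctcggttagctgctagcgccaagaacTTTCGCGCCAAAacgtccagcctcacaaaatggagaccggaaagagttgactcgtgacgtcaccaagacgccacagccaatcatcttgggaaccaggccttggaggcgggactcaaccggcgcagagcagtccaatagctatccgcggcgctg
Cdk1: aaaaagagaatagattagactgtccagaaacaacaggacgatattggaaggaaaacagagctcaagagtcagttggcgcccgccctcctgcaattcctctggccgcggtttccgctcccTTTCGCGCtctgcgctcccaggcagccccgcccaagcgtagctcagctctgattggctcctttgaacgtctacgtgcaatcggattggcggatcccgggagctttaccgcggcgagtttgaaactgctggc
Mcm5 holds 2 overlapping matches and Cdk1 1. Of 30 list genes with a window, 6 hold a match (20%), against 1.78% of all windows and 3.43% of those of tested genes.

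Other large families fell in the gel in both populations. Of 82 cytosolic ribosomal protein genes 79 fell in clone 2 and 78 in control, and the difference was lower in 47, against 14.8% of all genes (31 without clone 2 replicate 1 in 3D). Nuclear oxidative phosphorylation genes fell in 78 of 85 in clone 2 and 77 in control, with a lower difference in 42 (25 without clone 2 replicate 1 in 3D and 26 without control replicate 2 in 3D). Clustered histone genes fell in 57 of 63 in both, with a lower difference in 41, and near-identical histone genes could share reads. The histone gene Hist2h2bb had 18265 counts in clone 2 in 2D and 0 in 3D, and 12615 and 0 in control. The part of gene overlap and of shared reads in the histone falls was not tested. The median differences of these lists were -0.26, -0.27 and -0.50, against -0.06 over all genes.

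Of 29 hypoxia and glycolysis genes, 15 rose and 10 fell in clone 2, beside 42.5% and 37% of all genes. In control 19 rose and 7 fell, beside 41.7% and 35.6%. The difference was lower in 16 and higher in 1, against 14.8% and 7.43% of all genes. Ldha, lactate dehydrogenase A, was at 485 and 489 CPM in clone 2 in 3D and 1411 and 1514 CPM in 2D, against 569 and 604 CPM in control in 3D and 1017 and 991 CPM in 2D. Pgk1, phosphoglycerate kinase, was at 325 and 342 CPM in clone 2 in 3D and 797 and 822 CPM in 2D, against 338 and 371 CPM in control in 3D and 597 and 565 CPM in 2D. For these enzymes clone 2 was above control on plastic, and in the gel it was below control for Ldha and overlapped with it for Pgk1 (differences -0.81 and -0.57, adjusted p = 3.34e-08 and 6.75e-06). Vegfa, a hypoxia-induced angiogenic factor chosen after its values were seen, rose by 1.48 in clone 2 and 1.67 in control, with no called difference (adjusted p = 0.455).

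In 14 fatty acid synthesis genes the difference was higher in 9 and lower in 1, against 7.43% and 14.8% of all genes. In clone 2, 8 rose and 4 fell, beside 42.5% and 37% of all genes. In control 4 rose and 6 fell, beside 41.7% and 35.6%. The list medians were 0.30 in clone 2 and -0.02 in control. Fasn, fatty acid synthase, was at 1652 and 1661 CPM in clone 2 in 3D and 1216 and 1187 CPM in 2D, against 1502 and 1478 CPM in control in 3D and 1354 and 1433 CPM in 2D. Fads1, a desaturase, was at 98.6 and 96.3 CPM in clone 2 in 3D and 65.8 and 61.2 CPM in 2D, against 91.3 and 94.2 CPM in control in 3D and 90.6 and 84.2 CPM in 2D. Scd2, stearoyl-CoA desaturase 2, was at 1734 and 1753 CPM in clone 2 in 3D and 1426 and 1380 CPM in 2D, against 1674 and 1685 CPM in control in 3D and 1942 and 1968 CPM in 2D. Clone 2 was below control on plastic for these 3 genes and slightly above it in the gel, with differences of 0.37, 0.53 and 0.53. The control change of Fasn alone, 0.10, was not called (adjusted p = 0.0713) and passed the threshold in 7 of 20 alternatives. In cholesterol synthesis the difference was higher in 7 of 22 and lower in 0, against the same shares, but in 2 without clone 2 replicate 2 in 3D or without control replicate 1 in 3D and 4 without control replicate 2 in 3D. Mvd, mevalonate diphosphate decarboxylase, was at 40.4 and 42.0 CPM in clone 2 in 3D and 42.1 and 35.7 CPM in 2D, against 31.7 and 34.9 CPM in control in 3D and 56.1 and 53.5 CPM in 2D.

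Of 26 ER stress and ATF4 target genes, 17 fell and 6 rose in clone 2, beside 37% and 42.5% of all genes. In control 15 fell and 7 rose, beside 35.6% and 41.7%. The difference was lower in 10 and higher in 2, against 14.8% and 7.43% of all genes. Asns, asparagine synthetase, was at 30.5 and 30.5 CPM in clone 2 in 3D and 111 and 118 CPM in 2D, against 51.2 and 53.9 CPM in control in 3D and 118 and 105 CPM in 2D. Psat1, an enzyme of serine synthesis, was at 79.4 and 79.5 CPM in clone 2 in 3D and 335 and 332 CPM in 2D, against 133 and 129 CPM in control in 3D and 376 and 367 CPM in 2D. For both, the gel levels set clone 2 apart and the plastic levels lay close. Of 15 heat shock genes, 6 rose and 9 fell in clone 2, beside 42.5% higher and 37% lower over all genes. In control 5 rose and 7 fell, beside 41.7% and 35.6%. The difference was lower in 6 and higher in 0, against 14.8% and 7.43% of all genes. Hsph1, a chaperone of the HSP110 family, was at 102 and 102 CPM in clone 2 in 3D and 82.6 and 77.7 CPM in 2D, against 162 and 155 CPM in control in 3D and 74.2 and 74.6 CPM in 2D. It rose in both populations, and less in clone 2 (difference -0.75). Early response genes, with 18 of 20 higher and 2 lower in each population, had a called difference in 4 genes, 1 higher and 3 lower in clone 2 (1 lower without control replicate 2 in 2D), near the 22.2% of all genes.

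Among 28 epithelial genes the difference was higher in 6 and lower in 6, against 7.43% and 14.8% of all genes (3 higher without any 1 of the 4 3D libraries of clone 2 and control). Krt14, a basal keratin, was at 7.59 and 7.84 CPM in clone 2 in 3D and 41.4 and 41.0 CPM in 2D, against 34.8 and 36.4 CPM in control in 3D and 78.6 and 77.6 CPM in 2D. The difference was -1.28 (adjusted p = 1.64e-07), and clone 2 was lower in both formats. Among 13 mesenchymal genes the difference was lower in 5 and higher in 0, beside the same shares, and Fn1, fibronectin, was at 966 and 928 CPM in clone 2 in 3D and 538 and 556 CPM in 2D, against 1378 and 1276 CPM in control in 3D and 488 and 535 CPM in 2D. Among the remaining lists, against 7.43% higher and 14.8% lower over all genes, the difference was higher in 1 and lower in 2 of 13 zinc transporter and metallothionein genes, higher in 1 and lower in 3 of 10 arrestin-domain and thioredoxin-related genes, lower in 4 of 7 Cdk inhibitor and D cyclin genes, and higher in 2 of 12 mitochondrial genome genes, which could share reads with nuclear copies. The last count was 4 without clone 1 replicate 1 or 2 in 2D, clone 2 replicate 1 in 2D or control replicate 1 in 2D.

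**Figure D5:**
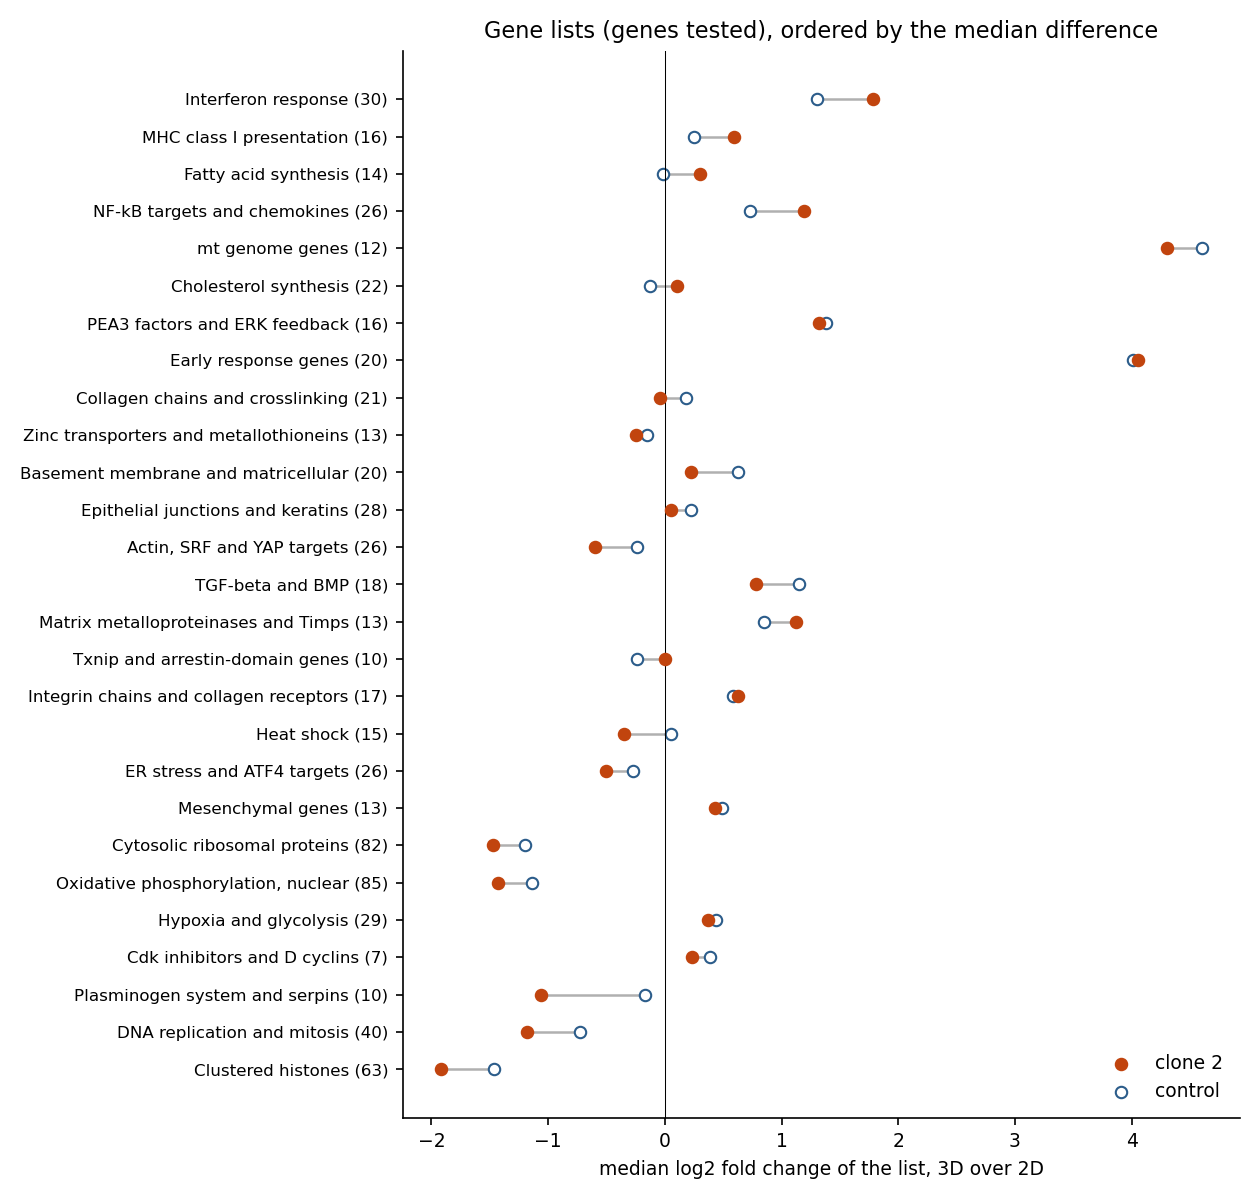
Median log2 fold change of 3D over 2D of 27 gene lists, filled circles for clone 2 and open circles for control, with the number of genes tested in parentheses and the lists ordered from top to bottom by the median of the single-gene differences, which need not equal the distance between the circles. The interferon list, at 1.78 in clone 2 and 1.30 in control, is at the top, and the clustered histones and the DNA replication and mitosis list (-1.18 and -0.73) are at the bottom.

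Clone 2 also differed from clone 1, the other single clone, in its response. Against clone 1, 4093 genes differed (29.7%), of which 1490 were higher (10.8%) and 2603 lower (18.9%). At least 2-fold differences from clone 1 numbered 356 higher (2.59%) and 235 lower (1.71%). These contrasts share the clone 2 libraries, so the values of named genes are given side by side and no overlap is drawn from them. Sparc differed by -2.59 from clone 1 and by -3.01 from control, and Sox13 by -2.44 and -2.38. Id2 differed by -0.80 from clone 1 and by -1.88 from control, and Id1 by -1.31 and -1.65. C3 differed by 0.49 from clone 1 (adjusted p = 0.414) and by 3.30 from control, and Bmf by 1.00 (adjusted p = 0.441) and 2.44. Mmp3 differed by -1.61 from clone 1 and by 1.82 from control, so clone 2 stood between them, and clone 1 raised it by 4.03 on the log2 scale. Ifit1 differed by 4.05 from clone 1 and by 2.97 from control, and Mcm5 by -0.86 and -0.59.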

How the data were processed

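RNA of 4T1 cells was made into stranded mRNA libraries, and the authors deposited 1 table of raw read counts per gene for each format (2D and 3D), with 6 libraries each. The submitters' processing notes list build mm10, STAR 2.7.9a and featureCounts beside FastQC 0.11.9, Cell Ranger 3.0.0 and R 4.1.1, with no role or strand setting given in the sources used here. The tables were joined by gene symbol (31017 genes).

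Groups came from the sample titles. Genes were filtered by edgeR's filterByExpr, libraries scaled by TMM, and 6 group means fitted to 12 libraries with edgeR 4.0.16 (quasi-likelihood, 6 residual degrees of freedom, R 4.3.3, limma 3.58.1), with Benjamini-Hochberg adjustment over 13763 genes and a threshold of 0.05. CPM use TMM-scaled library sizes, and folds against 0 counts use a floor of 3 counts over a group, which covers counting error only. Values after ± are approximate standard errors, each the absolute log2 change divided by the square root of its F statistic. A gene is added when the difference and the clone 2 change passed in the same direction and the control change did not pass, and lacking in the reverse case. The fit was tested on simulated data.

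The members and lists were chosen with earlier results of these data known. Named genes were Etv4, Etv1 and Etv5, the 15 most raised and 15 most lowered in clone 2, the 6 with the largest difference per class and direction (at least 5 CPM in a group, no predicted genes), and per list up to 4 by the clone 2 p and 2 by the difference p, of which the text describes some. Aurka, Bst2, Col6a1, Foxm1, Gadd45b, Id3, Irf9, Klf2, Ptgs2, Spry2 and Vegfa fall outside that rule and were chosen after their values were seen. Exon overlap was read from the GENCODE M21 annotation and promoters from RefSeq, GRCm38.p6. Alternatives were DESeq2 1.42.0, other size factors, no filter, thinned depth, a replicate block, fewer libraries and genes without overlap. A few single-gene results are not reported here.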

Additional observations from a re-analysis of the deposited data

Results flagged for a closer look

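The response to the gel differed between clone 2 and control for 3059 genes by the test of the difference itself, and the named genes among them with a difference of at least 1 on the log2 scale are given here, as clone 2 minus control. Matrix and protease genes differed by 1.42 (Mmp9), 1.82 (Mmp3), -1.44 (Serpinb5), -3.01 (Sparc), -1.05 (Col12a1), 1.07 (Col7a1), 1.78 (Col6a1), 1.63 (Col4a5), -1.30 (Lama3), -3.35 (Edil3) and -1.42 (Sdc3). Interferon, MHC and immune genes differed by 2.97 (Ifit1), 2.26 (Oasl2), 1.37 (Oasl1), 2.23 (Oas1a), 1.06 (Irf9), 2.68 (Nlrc5), 3.30 (C3), 1.49 (Cxcl5), 1.72 (Itgb2), 2.06 (Samsn1) and 3.02 (Gpnmb). Cell cycle, Id and arrestin-domain genes differed by -2.82 (Cdkn1a), -1.65 (Id1), -1.88 (Id2), -1.08 (Txnip), -1.47 (Arrdc3) and 2.44 (Bmf). Epithelial and adhesion genes differed by -1.28 (Krt14), 1.03 (Cldn3), -1.81 (Lypd3), 1.82 (Amigo2), 3.02 (Robo1), -1.61 (Ilk) and -1.96 (Anxa8). Other named genes differed by -2.33 (Prl3d2), 2.68 (Gpm6b), 1.88 (Sh2b2), -2.38 (Sox13), -2.01 (Sh3tc1), -2.44 (Prl2c3), -1.18 (Sipa1l2), 1.99 (Wnt10a), 1.19 (Tgm2), 1.07 (Herc3), 4.25 (Neurl3), -2.99 (Mfsd4a) and 1.54 (Rsad1). Among the genes listed here, at least Ilk, Mfsd4a, Lypd3, Sdc3 and Cdkn1a overlap genes on the opposite strand. For Col12a1, leaving out control replicate 1 in 3D ended the call (adjusted p = 0.0612, with 0.0007 to 0.0612 over all alternatives, by edgeR and DESeq2). For Mfsd4a, which had 2 counts in control in 2D, leaving out clone 2 replicate 1 in 2D (adjusted p = 0.0526) or control replicate 1 in 2D (-2.07, adjusted p = 0.111) ended the call, with 0.0093 to 0.111 over all alternatives. For Prl3d2, leaving out control replicate 2 in 3D did so (adjusted p = 0.0517, with 0.0031 to 0.0517 over all alternatives).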

How the results depend on the processing

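With only the 8179 genes free of any exon overlap tested, counts fell with the number of genes: clone 2 had 3519 higher and 2985 lower, control 3460 and 2872, the difference from control 645 higher, the difference from clone 1 983 higher and 1583 lower, and the larger, smaller and opposite classes 1110, 290 and 71 genes. Leaving out 1 library at a time gave 5371 to 6309 higher and 4710 to 5226 lower in clone 2, 5309 to 6102 and 4368 to 4972 in control, 593 to 1125 and 1282 to 2207 for the difference from control, and 1071 to 1696 and 1826 to 2859 for that from clone 1. Classes then held 264 to 568 added, 189 to 346 lacking, 1087 to 1871 larger, 247 to 516 smaller and 72 to 139 opposite genes.

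Same-numbered libraries of different groups showed little shared deviation, with r between -0.045 and 0.022. This r weighs all tested genes equally, those of few counts included, so it cannot exclude a small shared effect of the replicate number. With the replicate number as a block, the difference from control was higher in 944 and lower in 1948 genes.

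The split of the difference moved with scaling and with the libraries fitted. It was 1231 higher and 1577 lower without Gm26917 and Gm42418, 1144 and 1628 with control and clone 2 libraries alone, 1245 and 1709 with no filter, and 1012 and 1476 without clone 1 replicate 2 in 3D. The DESeq2 Wald test gave 944 higher and 1585 lower. Of 10083 values of 504 single-gene results under alternatives, 9841 kept direction and side of the threshold, 122 lost a call and 65 gained one. Another 55 changed sign with no call in the main fit or in the alternative, and 0 changed sign where either was called. With 2 libraries per group, small differences in genes of few counts were not detectable.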
